A study of Mus musculus with 10 samples.

Results

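Open chromatin around 10 genes of mast cells and basophils was followed in G1E-ER4 cells (called G1ER here) during GATA1-driven erythroid differentiation. The genes were Fcer1a, Ms4a2, Fcer1g, Cpa3, Gzmb, Mcpt8, Srgn, Hdc, Il1rl1 and Mitf, out of 21938 protein-coding genes in GENCODE M21. They were taken by name, and the list was chosen with earlier results of these data known. Every ATAC-seq summit from 100 kb before to 100 kb after a gene's span was assigned to it, which is its window. Summits lay in the windows of 9 of the 10 genes, while 17654 of all coding genes had a summit in theirs. The summits of all libraries formed 28981 regions, each the union of overlapping windows reaching 250 bp to either side of a summit, and 66 of these regions lay in the windows of the 10 genes. No region belonged to more than 1 of the genes.

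G1ER is an immortalized mouse line that lacks a working Gata1 gene and carries GATA1 joined to the ligand-binding domain of the estrogen receptor, so β-estradiol switches GATA1 on in every group but the untreated one. ATAC-seq uses the Tn5 transposase to cut accessible DNA. The 5 groups were untreated cells (0 h) and cells kept in 1e-07 M β-estradiol for 2, 6, 12 or 24 h, with 2 libraries each and about 50000 cells per library. All groups shared the same Gata1-null background and transgene, were grown in 15% fetal bovine serum with 50 ng/mL SCF and 2 U/mL erythropoietin, and came from 1 line. SCF is also a mast cell growth factor, and no mast cells, basophils or cells without the transgene were included. The study describes its ATAC-seq replicates as independent experiments.

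Mast cells and basophils bind IgE through a receptor made of the FcεRI α, β and γ chains and release granules of proteases and histamine when the receptor is cross-linked. Mast cells, basophils and erythroid cells share progenitors, and GATA factors act in all of these lineages. GATA2 is tied to the progenitor and mast cell programme, whereas GATA1 takes its place at many sites as erythroid cells mature.

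The regions nearest to the genes that were in both 0 h libraries and in neither library of a later time point are shown first, because the values below turn on them. Each run holds the 201 bases around the region's centre on the plus strand of GRCm38 (mm10), read from the reference genome. Capitals mark GATA letters (AGATAA, with TGATAA as the second form), E-box letters of the MITF family (CACGTG, with CATGTG as the second form), AP-1 letters (TGANTCA), RUNX letters (TGTGGT) and ETS letters (CGGAAGT, with AGGAAGT as the second form), searched on either strand.
Il1rl1 start (chr1:40429315-40429515): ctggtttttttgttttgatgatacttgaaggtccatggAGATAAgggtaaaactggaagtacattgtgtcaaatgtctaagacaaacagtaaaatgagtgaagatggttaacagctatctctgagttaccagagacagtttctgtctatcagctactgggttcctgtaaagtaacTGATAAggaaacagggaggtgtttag
Cpa3 upstream (chr3:20244030-20244230): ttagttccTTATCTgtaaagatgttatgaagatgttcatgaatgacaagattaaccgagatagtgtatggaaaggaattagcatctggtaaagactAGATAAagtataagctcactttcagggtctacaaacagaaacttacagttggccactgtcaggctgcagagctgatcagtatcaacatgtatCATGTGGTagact
Il1rl1 upstream (chr1:40418663-40418863): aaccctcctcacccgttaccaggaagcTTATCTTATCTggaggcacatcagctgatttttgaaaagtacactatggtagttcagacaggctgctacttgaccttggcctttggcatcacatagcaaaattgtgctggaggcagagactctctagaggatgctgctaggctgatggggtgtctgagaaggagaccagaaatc
Ms4a2 upstream (chr19:11625303-11625503): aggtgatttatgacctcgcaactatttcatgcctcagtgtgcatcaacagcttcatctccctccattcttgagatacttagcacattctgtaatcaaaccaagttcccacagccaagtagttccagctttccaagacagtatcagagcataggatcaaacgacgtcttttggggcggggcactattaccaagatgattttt
Gzmb upstream (chr14:56266259-56266459): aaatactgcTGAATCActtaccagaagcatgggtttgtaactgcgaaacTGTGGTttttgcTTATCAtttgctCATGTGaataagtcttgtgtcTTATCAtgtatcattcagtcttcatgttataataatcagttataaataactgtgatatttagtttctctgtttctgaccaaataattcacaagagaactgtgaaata

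GATA letters stood in 4 of these 5 runs, and the Ms4a2 run held none of the motifs searched. In the Il1rl1 run 10.8 kb upstream, the 2 GATA matches overlapped by 1 base. In the Cpa3 run CATGTG overlapped the RUNX match, and the Gzmb run held GATA, E-box, AP-1 and RUNX letters. Among windows of this length centred on all 28981 regions, 28.0% held a GATA match, 16.4% an E-box, 6.67% AP-1, 16.2% RUNX and 12.9% ETS letters. A GATA match was found in 24 of the 45 regions of the 10 gene windows that lay over 1 kb from any coding start, and in 39.0% of all regions at such distances. A match describes the letters and is not a binding measurement.

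Each deposited list gives the summits of 1 library with the −log10 q-value of the peak in that library. Since this score is not scaled between libraries, it was turned into a percentile within its list, where 100 is the top score and 0 stands for no summit. A pair of values with a slash gives replicate 1 and replicate 2 of a time point. The lists held 10698 (24 h replicate 2) to 19859 summits (6 h replicate 2), and their depth is unknown. The windows of the 10 genes held 29/27 summits at 0 h, 29/32 at 2 h, 23/38 at 6 h, 17/22 at 12 h, then 20/15 at 24 h. Per 1000 summits of the list, this was 1.90/2.31 at 0 h against 1.28/1.40 at 24 h. Of the erythroid markers, 4 to 7 of 11 matched genes had a summit within 1 kb of a start in each library. None of 8 markers of mature T, B or NK cells, 7 myeloid markers and 5 megakaryocyte markers had one in any library.

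The regions in the gene windows that lay away from every coding start were fewer at the late time points, and those at the starts of neighbouring genes were about as many. Of the 45 regions over 1 kb from any start, 16 and 15 were present at 0 h, 15/17 at 2 h, 11/22 at 6 h, 7/9 at 12 h, then 8/4 at 24 h. Both 24 h libraries were below both 0 h libraries, and so were both 12 h libraries. At 6 h, replicate 1 was below and replicate 2 above them. Of the 19 regions within 1 kb of another gene's start, 12 and 11 were present at 0 h, 12/13 at 2 h, 12/15 at 6 h, 9/12 at 12 h, then 12/11 at 24 h. A contrast between these classes was also seen over the whole genome. Of all regions in both 0 h libraries, 26.9% of those over 1 kb from any start were in neither 24 h library. Of those within 1 kb of a start, 1.95% were. For the 12 h libraries these shares were 14.1% and 1.21%. The count per library over all regions is not given.

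**Figure D1:**
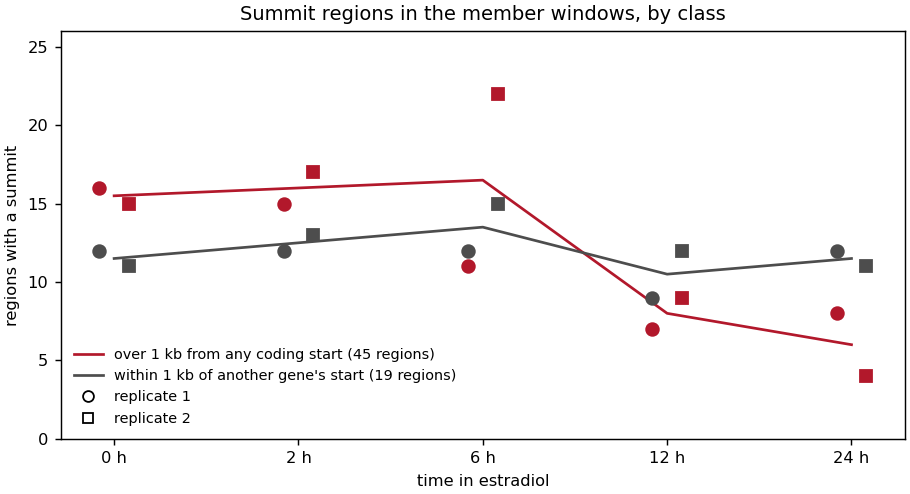
Number of regions with a summit in each library (y axis) by time in estradiol (x axis), for 45 regions of the gene windows over 1 kb from any coding start (red) and 19 within 1 kb of another gene's start (grey). Circles are replicate 1, squares replicate 2 and lines the mean of both. Red points were at 16/15 before estradiol and 8/4 after 24 h, and grey points at 12/11 both times.

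A region was called lost where both 0 h libraries and neither library of the later time point had it, and gained in the opposite case. None of the 66 regions was lost at 2 h, against 1.15% of all regions. At 6 h 3 were lost (0.759% of all), at 12 h 5 (1.88% of all) and at 24 h 9 (3.51% of all). Of the 10 regions over 1 kb from any start that both 0 h libraries had, 8 were lost at 24 h, and of all 3321 such regions 26.9% were. The 8 lay near Fcer1a (2 regions), Ms4a2 (2), Cpa3, Gzmb, Mcpt8 and Il1rl1. The other 2 were a region inside Srgn and 1 upstream of Hdc, each of which remained in 1 of the 2 libraries at 24 h. The 9 regions at other genes' starts that both 0 h libraries had were all in at least 1 library at 24 h. Gains numbered 2 at 2 h (2.67% of all regions), 4 at 6 h (4.08%), 2 at 12 h (2.47%) and 1 at 24 h (1.71%).

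Cpa3, Gzmb, Il1rl1, Ms4a2 and Srgn were among the promoters the study selected as repressed during this differentiation, so fewer summits in their windows are not independent evidence of direction. Fcer1a and Mcpt8 were not in that selection.

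limma, fitted to the percentiles of all 28981 regions, called no region in any comparison after Benjamini-Hochberg adjustment, in the 10 gene windows or elsewhere. At an unadjusted p under 0.05 it gave 1030 of all regions at 24 h, 2.35% of all regions being lower there. In the gene windows, 6 of 66 regions were lower and none higher by that threshold at 24 h. With 2 libraries in a group, an exact permutation test of 0 h against 24 h alone cannot go below p = 0.333, so a trend over the 5 time ranks was also tested by enumerating all 113400 orders of the libraries. That exact permutation test gave 7 regions with a negative slope and none with a positive one in the gene windows at an unadjusted p under 0.05, against 2.81% with a negative slope over all regions. None passed the adjustment, and the test called no region anywhere.

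The FcεRI chains came first among the roles examined. Fcer1a encodes the α chain, which binds IgE. Its window held 3/2 summits at 0 h, 4/1 at 2 h, 1/2 at 6 h, and none in any library at 12 or 24 h. The 12 h and 24 h libraries therefore did not overlap with those at 0 h. On the log2(summits + 1) scale the difference at 24 h was −1.79 (SE 0.44, limma adjusted p = 1), and the exact permutation trend gave p = 0.0112 before and 1 after adjustment. No summit lay within 1 kb of an Fcer1a start in any library.

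A pair of regions accounted for the 0 h summits that both libraries shared at Fcer1a. One lay 10.6 kb downstream of the start, in an exon of the olfactory receptor gene Olfr1404 (chr1:173216363-173217011). The region's centre was 1025 bp from the Olfr1404 start, so it only just passed the 1 kb limit for lying away from every start. Its percentiles were 70.3/20.9 at 0 h, 9.46/0 at 2 h, 1.73/0 at 6 h, and 0 in all later libraries. Each later library was thus below both 0 h libraries. The 24 h difference was −45.6 percentile points, −20.9 without 0 h replicate 1 and −70.3 without 0 h replicate 2. The exact permutation trend gave p = 0.00476 before and 0.885 after adjustment. The other lay 91.1 kb upstream between genes (chr1:173317989-173318578), with 61.1/44.6 at 0 h, 48.6/0 at 2 h and 0 from 6 h on. Its exact permutation trend gave p = 0.0222 before and 1 after adjustment.

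Ms4a2 encodes the β chain, which amplifies the receptor's signal. Its window held 2/2 summits at 0 h, 0/5 at 2 h, 1/4 at 6 h, 0/1 at 12 h, then 1/1 at 24 h. The replicates at 2 h and 6 h stood far apart, and only at 12 h and 24 h were both libraries below those at 0 h. The nearest region to the gene lay 1.7 kb upstream of its start (chr19:11625130-11625740), with percentiles of 33.7/13.5 at 0 h, 0/28.9 at 2 h, 0/0.0655 at 6 h, and 0 afterwards. This was a low-ranked region in every library that had it, and the 24 h difference of −23.6 percentile points was −5.42 with lists of equal size. Its exact permutation trend gave p = 0.0270 before and 1 after adjustment.

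Downstream of Ms4a2, toward Ms4a6d, a lost and a gained region lay side by side. The region at 11.2 kb had percentiles of 48.1/25.4 at 0 h, 0/34.5 at 2 h, and 0 in all later libraries. Its neighbour at 11.9 kb had 0 in both 0 h libraries, 0/34.5 at 2 h, 40.3/44.9 at 6 h, 0/20.1 at 12 h, then 42.3/14.6 at 24 h. The first was thus lost from 6 h on while the second was gained at 6 h and 24 h. In 2 h replicate 2 both had the same score, 5.33, and whether they were summits of 1 peak was not tested. With windows of 500 bp to either side the 2 merged, the joint region was present at both ends of the time course, and its difference between 24 h and 0 h was −8.27 percentile points. Without this pair, the count of lost regions at 24 h was 8 and no region was gained.

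Fcer1g encodes the γ chain, which many immune receptors share and which carries the signalling motif. Its window held 8/8 summits at 0 h, 8/7 at 2 h, 8/8 at 6 h, 6/7 at 12 h, then 7/7 at 24 h. Nearly all lay at the starts of other genes, 8 of its 10 regions in all. The highest-ranked was at the Tomm40l start, 11.7 kb downstream of Fcer1g, with percentiles between 90.2 and 99.0 in the 10 libraries. No summit fell within 1 kb of an Fcer1g start. The region at the Dedd start, 95.0 kb upstream, singled out after its values were seen, had 74.9/79.9 at 0 h, then 22.9/59.7 at 24 h, with an exact permutation trend of p = 0.0196 before and 1 after adjustment.

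**Figure D2:**
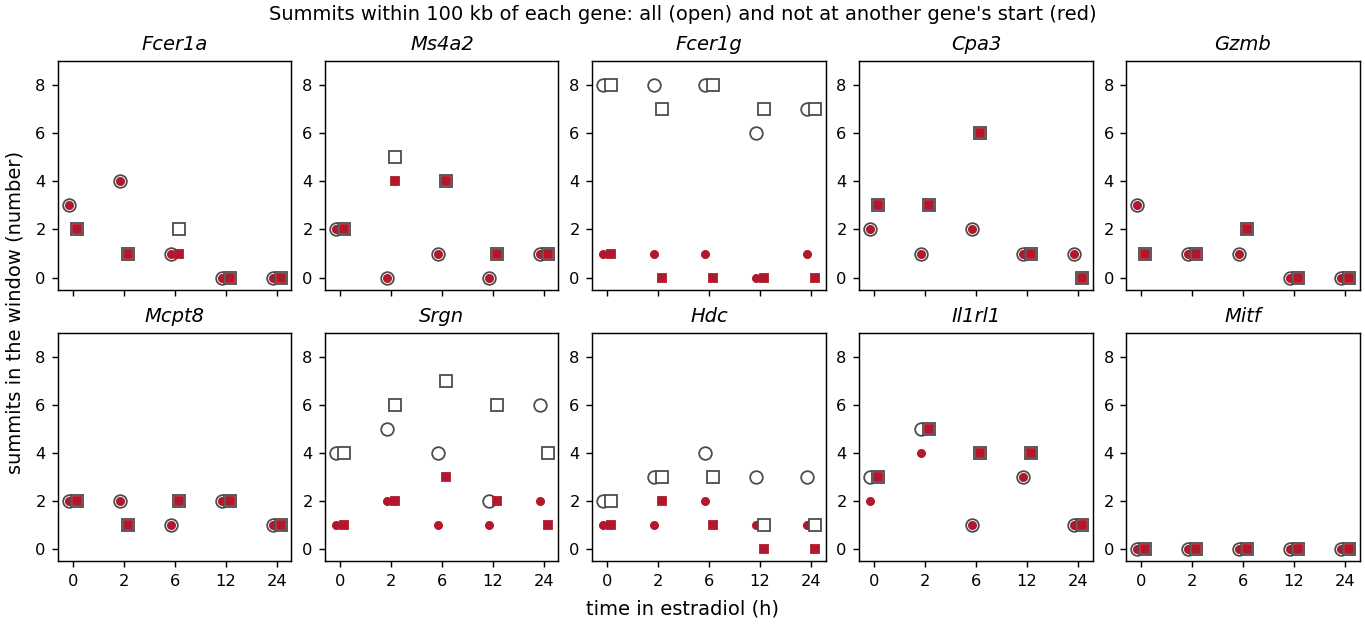
Number of summits (y axis) within 100 kb of each of the 10 genes by time in estradiol (x axis, hours). Open symbols count all summits and red symbols those not within 1 kb of another gene's start (circles replicate 1, squares replicate 2). Fcer1a and Gzmb were at 0 in all 12 h and 24 h libraries, Fcer1g stayed between 6 and 8 through summits at other genes' starts, and Mitf was at 0 throughout.

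The granule genes gave the highest-ranked lost region away from a start. Cpa3 encodes carboxypeptidase A3, a metalloprotease of mast cell granules. The region 1.9 kb upstream of its single start (chr3:20243798-20244445, between genes) had percentiles of 73.3/86.5 at 0 h, 74.8/90.3 at 2 h, 14.4/75.9 at 6 h, 0/54.8 at 12 h, then 0/0 at 24 h. It was among the upper ranks at 0 h and 2 h, present in 1 of the 2 libraries at 12 h and in neither at 24 h.

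The Cpa3 difference between 24 h and 0 h was −79.9 percentile points (SE 24.8, limma adjusted p = 0.907). The exact permutation trend gave p = 0.00624 before and 0.897 after adjustment. Raw scores in the libraries that had it ran from 3.41 to 18.6, against a lowest listed −log10 q-value of 1.3. The score of 3.41 was in 6 h replicate 1, at percentile 14.4, in the lower part of that list. The Cpa3 window as a whole held 2/3 summits at 0 h, then 1/0 at 24 h. In between, it held 1/3 at 2 h, 2/6 at 6 h, then 1/1 at 12 h. No summit was at the start of Cpa3 in any library. A low-ranked region 52.8 kb downstream (chr3:20189173-20189702) was gained at 6 h, with 19.2 and 4.74, and was also in 2 h replicate 2 (20.7) and 12 h replicate 1 (30.7).

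Gzmb encodes granzyme B, a serine protease of cytotoxic lymphocytes that mast cells and basophils can also make. Prf1 and Nkg7, markers of cytotoxic cells, had no summit at a start in any library. The window of Gzmb held 3/1 summits at 0 h, 1/1 at 2 h, 1/2 at 6 h, and none at 12 h or 24 h. On the log2(summits + 1) scale the 24 h difference was −1.50 (SE 0.39, limma adjusted p = 1), with an exact permutation trend of p = 0.0178 before and 1 after adjustment. The region 4.1 kb upstream (chr14:56266070-56266622) had low percentiles of 13.9/9.87 at 0 h, 0/5.70 at 2 h, 0/15.4 at 6 h, and 0 later. A second region, 58.0 kb downstream toward Gzmf, was in both 6 h libraries (31.1 and 31.9) and in no other. With lists of equal size the 24 h difference of the first, −11.9 percentile points, was −0.724, and the 6 h difference of the second, 31.5, was 4.23.

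Mcpt8 encodes a basophil protease and lies in the mast cell chymase cluster. Its window held 2/2 summits at 0 h, 2/1 at 2 h, 1/2 at 6 h, 2/2 at 12 h, then 1/1 at 24 h, in 3 regions 63.8 to 97.4 kb away toward Mcpt1 and Cma2. The region at 63.8 kb had percentiles of 38.9/12.7 at 0 h, 61.7/24.4 at 2 h, 0/51.6 at 6 h, 73.8/44.2 at 12 h, then 0/0 at 24 h. The 24 h difference was −25.8 percentile points, and −8.71 with lists of equal size. The region ranked highest at 12 h and was missing 12 h later, with an exact permutation trend of p = 0.580.

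Srgn encodes serglycin, the proteoglycan that packs proteases in granules. Its window held 4/4 summits at 0 h, 5/6 at 2 h, 4/7 at 6 h, 2/6 at 12 h, then 6/4 at 24 h. The 24 h libraries were not below those at 0 h. The highest-ranked region was at the Vps26a start, 20.9 kb downstream. In an intron of Srgn 6.4 kb from a start, a region named after its values were seen, percentiles were 1.04/10.8 at 0 h, 9.66/57.8 at 2 h, 0/44.6 at 6 h, 27.0/0 at 12 h, then 0/47.1 at 24 h. The replicates differed at each later time point by more than the group means did from 0 h.

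Hdc encodes histidine decarboxylase, which makes histamine. Its window held 2/2 summits at 0 h, then 3/1 at 24 h, and its highest-ranked region was at the Usp8 start 88.6 kb upstream (76.6 to 97.9 in the 10 libraries). Between these times it held 3/3 at 2 h, 4/3 at 6 h, then 3/1 at 12 h. The start of Hdc itself had a summit only in 2 h replicate 2, at percentile 8.03. A region 17.4 kb upstream, in an intron of Gabpb1 and also named after its values were seen, had 22.3/32.0 at 0 h, 54.4/29.5 at 2 h, 57.4/34.8 at 6 h, 40.8/0 at 12 h, then 68.7/0 at 24 h. Replicate 2 lacked it at both late time points while replicate 1 kept it.

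**Figure D3:**
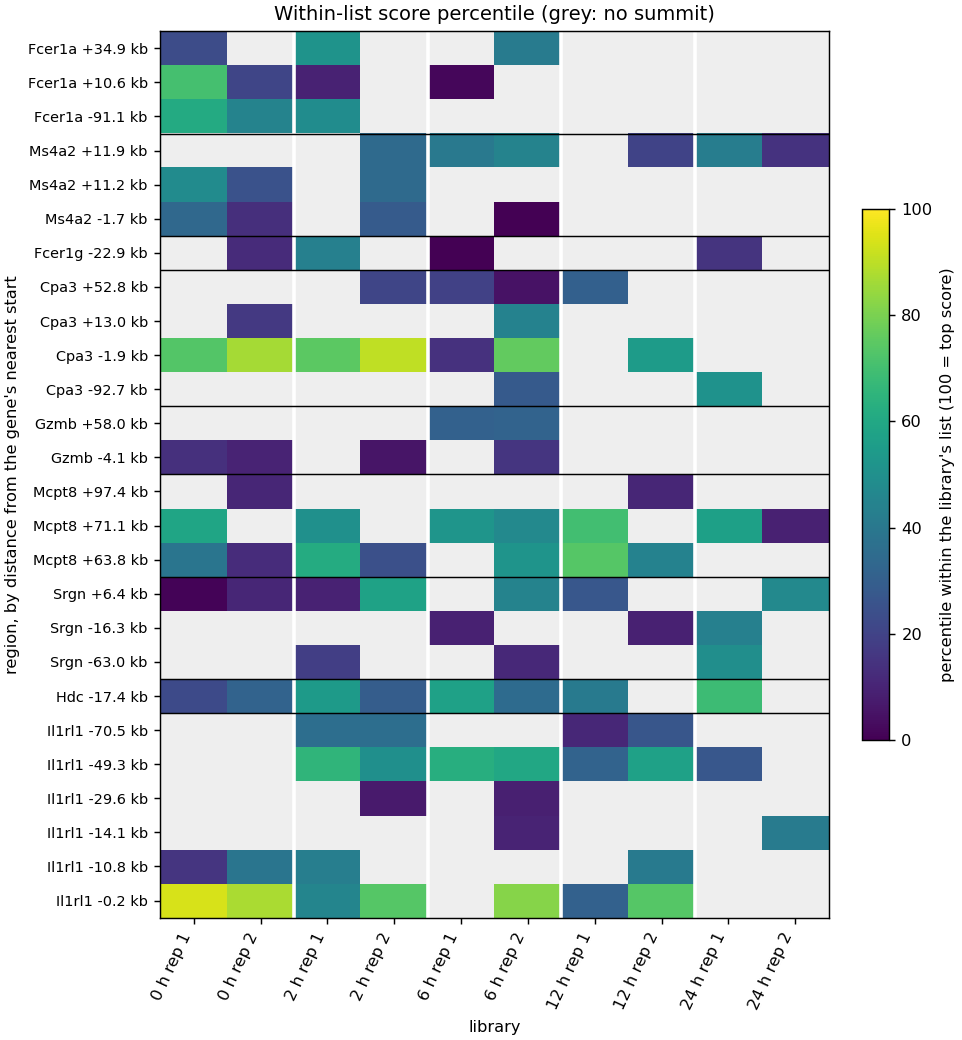
Percentile of each region's score within its library's list (colour, 0 to 100, grey where no summit was listed) for the 26 regions in at least 2 libraries and not at another gene's start. Rows are regions by distance in kb from the gene's nearest start and columns the 10 libraries. The Il1rl1 row at −0.2 kb and the Cpa3 row at −1.9 kb were bright at 0 h and grey in both 24 h libraries, and the Il1rl1 row at −49.3 kb was grey at 0 h and coloured in all libraries from 2 h to 12 h.

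Il1rl1 encodes ST2, the receptor for IL-33 on mast cells and basophils, and was the only member with a start in the lists of most libraries. The region centred 155 bp upstream of its first start (chr1:40429024-40429684, centre between genes, reaching into the first exon) had percentiles of 93.8/87.5 at 0 h, 45.6/73.6 at 2 h, 0/81.7 at 6 h, 31.2/73.7 at 12 h, then 0/0 at 24 h. All 8 later libraries were below both at 0 h. Replicate 1 was below replicate 2 at 2, 6 and 12 h, by up to 81.7 points.

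The difference at the Il1rl1 start between 24 h and 0 h was −90.6 percentile points (SE 27.3, limma adjusted p = 0.907). The exact permutation trend gave p = 0.0224 before and 1 after adjustment. The raw score was 16.7/15.0 at 0 h and 12.3 in 12 h replicate 2. Among all regions within 1 kb of a coding start that both 0 h libraries had, 1.95% were lost at 24 h.

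Upstream of Il1rl1 both lost and gained regions were found. The region 10.8 kb upstream had 15.4/38.8 at 0 h, 42.9/0 at 2 h, 0/0 at 6 h, 0/40.7 at 12 h, then 0/0 at 24 h. The region 49.3 kb upstream (chr1:40380008-40380650) had 0 in both 0 h libraries, 65.6/50.0 at 2 h, 62.8/60.0 at 6 h, 31.7/57.0 at 12 h, then 27.2/0 at 24 h. It was gained at 2, 6 and 12 h, and by 24 h it was left in 1 library. The difference at 6 h was 61.4 percentile points (SE 17.9, limma adjusted p = 0.712). A region 70.5 kb upstream, in an intron of Il1rl2, was in both libraries at 2 h (36.1 and 36.0) and 12 h (11.0 and 26.9) and in no other. Its difference at 12 h was 18.99 percentile points, and 2.78 with lists of equal size.

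**Figure D4:**
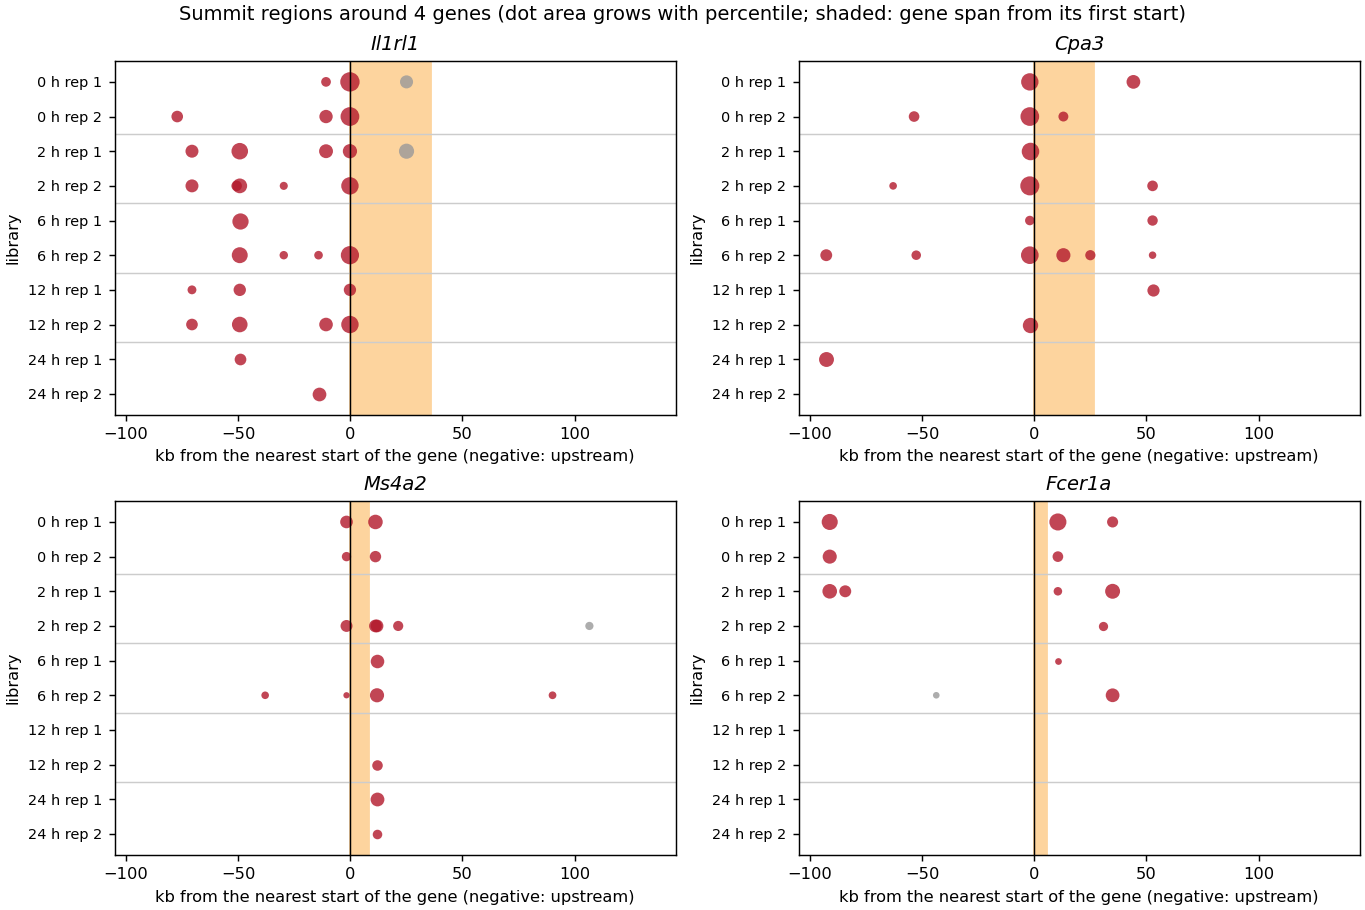
Regions around Il1rl1, Cpa3, Ms4a2 and Fcer1a by distance from the gene's nearest start in kb (x axis, negative upstream) in each library (y axis). Dot area grows with the percentile, grey dots lie at another gene's start, and the shaded band is the gene's span drawn from its first start. Dots are placed by the nearest of a gene's starts, so the region at the Il18r1 start falls in the Il1rl1 band though it lies beyond the gene's end. The dots at the starts of Il1rl1 and 1.9 kb upstream of Cpa3 were missing in both 24 h libraries, and Fcer1a had no dot in any 12 h or 24 h library.

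The whole Il1rl1 window held 3/3 summits at 0 h, 5/5 at 2 h, 1/4 at 6 h, 3/4 at 12 h, then 1/1 at 24 h. The libraries at 2 h were both above, and those at 24 h both below, the 0 h libraries. On the log2(summits + 1) scale the 24 h difference was −1 (SE 0.38, limma adjusted p = 1).

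Mitf encodes a transcription factor needed for mast cell development. Not 1 summit of any library lay in its window of 414.3 kb, which holds 6 coding starts of Mitf and none of another gene. The nearest summits of any list were 580.8 kb before and 1075 kb after its span. Among the 911 coding genes with a span at least as long, 26.2% also had no summit in any library, as did 19.5% of all coding genes.

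Across the 9 windows with summits, 5 (Fcer1a, Ms4a2, Fcer1g, Cpa3 and Gzmb) had fewer in both 12 h libraries than in both 0 h libraries, against 3.31% of all 17654 windows. At 24 h 7 did, the added ones being Mcpt8 and Il1rl1, against 5.87% of all windows. No window had fewer at 2 h (2.49% of all) or 6 h (0.833% of all). More summits in both libraries were seen for Srgn, Hdc and Il1rl1 at 2 h (11.7% of all) and for Hdc at 6 h (19.4% of all), and for none at 12 h or 24 h (11.4% and 4.71% of all). Summits at other genes' starts were left out in a count chosen after seeing the data, and 6 windows then had fewer at 24 h, all of the 7 but that of Fcer1g. The median difference at 24 h over the 9 windows was −0.58 on the log2(summits + 1) scale, and that over all windows was 0. limma called no window of the 17654 at any time point after adjustment, and 637 at an unadjusted p under 0.05 at 24 h, where 4 of the 9 and 2.19% of all windows were lower. With lists cut to equal size, 5 windows had fewer summits at 24 h and the Srgn window had more.

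Summits at the genes' own starts were rare. Of the 10 genes, 2 (Il1rl1 and Hdc) had one within 1 kb in any library, and 44.5% of 21829 coding genes did. Within 2 kb, which takes in the regions upstream of Cpa3 and Ms4a2, 3 genes had one at 0 h and none at 24 h. These were Il1rl1, Cpa3 and Ms4a2, so the count repeats regions already called lost at 24 h. The share of all coding genes at 2 kb is not given.

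Other genes of these cells were counted in 2 lists. Of 23 further mast cell and basophil genes, 3 to 7 had a summit within 1 kb of a start in each library and 16 had none in any. The start of Cd200r3, a basophil surface receptor gene, was in 7 libraries and was lost at 24 h, and no start was gained. Of all start regions (within 1 kb of a coding start) in both 0 h libraries, 1.95% were lost then. In 5 of the 23 windows both 24 h libraries had fewer summits than both 0 h libraries (21.7%, against 5.87% of all windows), and in none more (4.71% of all windows). The lists of mature T, B or NK cell and erythroid markers had such windows in 2 of 7 (28.6%) and 2 of 11 (18.2%), and the myeloid and megakaryocyte lists in none of 7 and 5. The 5 were Mcpt4, Ms4a3, Cd200r3, Il3ra and Enpp3, named after their values were seen, and the Mcpt4 and Ms4a3 windows share summits with those of Mcpt8 and Ms4a2. In the T, B or NK cell list the 2 windows were those of Cd3e (4/4 summits at 0 h, 3/3 at 24 h) and Cd3g (5/5, then 4/4). Their counts ran nearly in parallel over the libraries, and whether they share summits was not tested. Of 13 genes that signal below the IgE receptor, 3 to 6 had a summit at a start in each library, and Fyn, Plcg1 and Grb2 had one in all 10. The start of Inpp5d, a phosphatase that restrains mast cell activation, was in 7 libraries and was gained at 24 h. Of all regions, 1.71% were gained then, and the share for starts alone is not given. None of the 12 signalling windows with summits had fewer at 24 h (5.87% of all windows), and those of Lat and Plcg1 had more (4.71% of all windows). limma called none of these windows after adjustment.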

How the data were processed

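ATAC-seq peak lists from 10 libraries of 5 groups were used, with groups and replicate numbers from the sample titles. Before deposit, the authors removed adaptor sequence, mapped reads to mm10, kept those with 1 position and called peaks without a fragment model. The submitters' processing notes name Bowtie 1.0.0, Picard and MACS2, whereas the methods name Bowtie2. The deposited score is −log10 of the MACS q-value in its own library (lowest 1.3). The lists hold 1 bp summits and no counts or widths, so depth is unknown and no interval that needs it is given. No shift for the Tn5 cut is stated.

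Summits on chromosomes 1 to 19, X and Y were widened by 250 bp to each side and merged into regions. Scores became percentiles within each list. A region was lost or gained at a time point as the report defines. limma 3.58.1 in R 4.3.3, with a mean-dependent prior variance, was fitted to percentiles over all regions and to log2(summits + 1) over all coding gene windows, with Benjamini-Hochberg adjustment over each table. The gene fit used the robust option, chosen because the plain fit called unchanged windows in simulated data. The exact permutation trend was added after seeing the data. The limma fits and the exact permutation trend were tested on simulated data. Coordinates of GENCODE M21 and the genome were both GRCm38, and every summit lay inside its chromosome.

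The genes and lists were chosen with earlier results of these data known. Regions were named where they lay at a start of a member, were lost or gained in its window and not at another gene's start, or ranked highest in the window. The regions at the Dedd start, in Srgn and 17.4 kb upstream of Hdc fall outside this rule. The runs of bases shown are those at a changed start, then lost regions nearest to a member, in order of their mean percentile at 0 h. Alternatives were other window widths, lists of equal size, scores of at least 3, log2(score + 1) in place of the percentile, a gene window of 50 kb, a pseudocount of 0.5, a promoter distance of 500 bp or 2 kb, a replicate block and leaving out each library.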

Additional observations from a re-analysis of the deposited data

How the results depend on the processing

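Percentile differences were recomputed for the 14 regions at a member's start or lost or gained away from other genes' starts, each at 1 time point, and not for the other regions named. Each had no summit on 1 side of its comparison by the rule that picked it. Of the alternatives run, only wider windows, which merge regions, could therefore reverse its direction. With windows of 500 bp to each side the Ms4a2 region at 11.9 kb reversed to −8.27 percentile points, and the other 13 kept their direction. Kept direction is thus no separate evidence of a change. Sizes held less: 11 of the 14 moved by over 1.5 times in some setting, 9 of them with lists of equal size, and the regions at the Il1rl1 start, 1.9 kb upstream of Cpa3 and 91.1 kb upstream of Fcer1a did not. Lost regions at 24 h stayed between 7 and 9 and those at 12 h between 4 and 5 in all settings that kept every library. With lists of equal size, 1 region was lost at 2 h, 2 were gained at 6 h, 1 at 12 h and 2 at 24 h, 1 window was lower at 2 h, 3 at 6 h and 3 at 12 h, and 0 were higher at 2 h, 0 at 6 h and 1 at 24 h. With scores of at least 3, 1 region was lost at 2 h and 5 at 6 h, and 2 windows were lower at 6 h. With a 50 kb window, 1 region was gained at 2 h and 1 at 12 h, and 1 window was higher at 2 h and 0 at 6 h. Windows of 500 bp to each side left 0 regions gained at 24 h. Without summits at other genes' starts, 1 window was lower and 0 were higher at 6 h. Within 2 kb of a start, 3 members had a summit at 0 h. The causes of these shifts were not tested.

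Leaving out 1 library lets the remaining library decide alone, so counts mostly grew. Lost regions ranged from 3 to 5 at 2 h, 4 to 9 at 6 h, 8 to 11 at 12 h and 10 to 15 at 24 h, and gained regions from 2 to 12, 5 to 15, 2 to 5 and 1 to 6. Lower windows ranged from 0 to 3 at 2 h, 0 to 4 at 6 h, 5 to 6 at 12 h and 7 to 8 at 24 h, and higher windows from 3 to 4, 1 to 5, 0 to 2 and 0 to 2. limma then called regions of the gene windows in some fits of every comparison, and regions elsewhere in each of these fits. Over the 10 such fits, most called regions had no spread left between the libraries of any group. This was so in the gene windows and over all regions alike. On summit counts, the only member window limma called was that of Il1rl1, for the trend, where either 6 h library was left out. Windows of other genes were called in those fits too. A lone library is assumed to vary like the other groups.

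With a replicate block, limma called 0 regions and 0 windows of the members. Deviations of same-numbered libraries correlated at 0.0789 to 0.242 between groups, and the labels tie the numbers to no shared batch. Groups of 2 were too small for a test for outlying libraries. Replicate 2 lists had median scores of 6.73 to 7.68 and replicate 1 lists 5.68 to 6.48, so a region missing from a list may lie below its threshold.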
